A study of Mus musculus with 2 samples.

Results

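Glutathione, thioredoxin and other antioxidant genes were compared between testes of homozygous Mili mutant mice (Mili-/-) and of heterozygotes (Mili+/-), both at day 10 after birth. Genes were taken by symbol: glutathione transferases, glutathione peroxidases, peroxiredoxins, all symbols that begin with Txn, superoxide dismutases, catalase, the enzymes of glutathione synthesis and reduction, haem oxygenases, Nqo1 and metallothioneins. The rule found 54 of the 8251 genes that had a probe set with exactly 1 symbol, and each gene took its brightest probe set. Of the symbols that begin with Txn, 7 encode proteins with a thioredoxin fold and other main roles, among them the spliceosomal protein Txnl4a, so the set is wider than its enzymes. For Prdx1 the only probe sets also carry the symbol Gm21399, and it stayed outside the 54.

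Polyadenylated RNA of each genotype was read on 1 single-colour Affymetrix array, so the study has 2 arrays and no replicate. The labels do not say how many animals, which strain or which mutant allele stand behind an array. Both groups carry at least 1 mutant Mili allele, and no wild-type testis was part of the comparison. Mili (Piwil2) encodes a germline Piwi protein, and the submitters chose this age because dying cells appear in the mutant a day later. Piwil2 had no probe set with 1 symbol, so the genotypes were not checked on the targeted transcript.

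Reactive oxygen species form in respiration and in oxidase reactions. Superoxide dismutases turn superoxide into hydrogen peroxide, and catalase, the glutathione peroxidases and the peroxiredoxins remove the peroxide. Glutathione and thioredoxin carry the electrons for this, and are reduced again by glutathione reductase and the thioredoxin reductases with NADPH. The transcription factor Nrf2 raises many of these genes through antioxidant response elements, and the metal sensor MTF1 raises metallothioneins through metal response elements. In the testis, Sertoli and Leydig cells are known for abundant glutathione transferases, and the lipid peroxidase Gpx4 is needed in male germ cells.

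For 4 members, picked as reporters of Nrf2 (Gclm, Txnrd1), of superoxide removal (Sod1) and of metals (Mt2), the upstream sequences are shown. These sequences also hold matches to the core letters of the response elements named above. Each gives the 250 bases before a RefSeq start on GRCm38.p6, from the plus strand: Gclm at chr3:122245307-122245556, Txnrd1 at chr10:82858956-82859205, Sod1 at chr16:90220512-90220761 and Mt2 at chr8:94172368-94172617. Capitals mark matches to the antioxidant core TGACNNNGC or the metal cores TGCACNC and TGCGCNC, searched on both strands.
Gclm: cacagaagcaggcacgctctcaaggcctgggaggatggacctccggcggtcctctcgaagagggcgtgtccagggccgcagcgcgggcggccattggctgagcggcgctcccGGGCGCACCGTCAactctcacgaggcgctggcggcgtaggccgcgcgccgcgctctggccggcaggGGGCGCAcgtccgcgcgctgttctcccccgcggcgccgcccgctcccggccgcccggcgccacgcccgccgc
Txnrd1: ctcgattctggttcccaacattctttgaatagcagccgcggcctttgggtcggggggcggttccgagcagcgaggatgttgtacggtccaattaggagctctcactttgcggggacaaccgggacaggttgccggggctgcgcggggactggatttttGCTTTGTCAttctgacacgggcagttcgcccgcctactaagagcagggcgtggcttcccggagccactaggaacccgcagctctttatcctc
Sod1: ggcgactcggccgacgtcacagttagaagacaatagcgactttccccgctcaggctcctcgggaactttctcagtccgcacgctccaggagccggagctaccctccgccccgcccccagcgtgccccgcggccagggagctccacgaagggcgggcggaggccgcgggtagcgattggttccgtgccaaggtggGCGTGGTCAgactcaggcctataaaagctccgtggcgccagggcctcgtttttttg
Mt2: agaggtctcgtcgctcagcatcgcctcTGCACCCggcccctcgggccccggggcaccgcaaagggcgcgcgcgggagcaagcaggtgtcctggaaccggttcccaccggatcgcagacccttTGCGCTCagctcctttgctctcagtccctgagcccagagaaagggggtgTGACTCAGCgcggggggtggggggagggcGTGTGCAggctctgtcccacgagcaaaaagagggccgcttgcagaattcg
In Gclm an antioxidant and a metal match overlap within 1 run of capitals, and a second metal match follows. Txnrd1 and Sod1 each hold 1 antioxidant match, on the minus strand. Txnrd1 has several RefSeq starts, and the printed one is the only one whose window held this match. Mt2 holds 3 metal matches and 1 antioxidant match (TGACTCAGC).

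Of the 54 genes, 46 had an entry in the RefSeq promoter table, with 60 windows in all. Only 8 of the 46 held the antioxidant core, among them all 4 printed above, so the printed windows do not stand for the members. The windows of Nqo1 and Sod2, not printed, held neither core. The antioxidant core was found in 13.3% of these windows, against 10.2% of all 32851 windows of the same length, and the metal core in 21.7%, against 21.4%. At least 3 metal matches, as in Mt2, were held by 1.26% of all windows. The 4 genes printed above stood at log2 differences (Mili-/- minus Mili+/-) of -0.16 (Gclm), 0.42 (Txnrd1), -0.27 (Sod1) and 0.06 (Mt2), so genes that hold the antioxidant core lay on both sides of 0. Over all 7 members with this core that passed the brightness filter described below, the median was 0.05. Over the 33 without it the median was -0.08, and this gap was not tested. A match is only a description of the letters in the window.

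The antioxidant genes were closely alike on the Mili-/- and Mili+/- arrays, about as much as all genes were. Differences are given on the log2 scale after each array was centred on the median of its probe sets, which removed a shift of 0.11 (higher in Mili-/-). The 5095 genes past the brightness filter did not show this shift as deposited (median -0.02). Centring therefore moved them below 0 (median -0.13). A gene was compared if its signal reached the array median (41.5 in Mili-/-, 38.5 in Mili+/-) on at least 1 array, which 48 of the 54 did. None of the 48 was 2-fold higher or 2-fold lower in Mili-/-, where 0.314% and 0.53% of all 5095 genes past this filter were. At 1.5-fold, 1 was higher (Cat) and 1 lower (Txnrd2), 2.08% of the 48 in each direction, against 2.47% and 5.04% of all genes. As deposited, these shares of all genes were 3.87% and 2.43%, so which direction was commoner depended on the centring. In whole-testis RNA, fewer cells of a type and less RNA per cell cannot be told apart.

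The 48 genes had a median difference of -0.12, and all 5095 genes had a median of -0.13. All 54, dim ones included, had a median of -0.11, against -0.06 over the 8251 genes measured. The genes therefore lay where the other genes lay, and the signs of small differences rested on the scaling. Under each of median centring, the deposited scale, quantile normalization and loess, 16 of the 48 were above 0 and 23 below 0. The other 9 took either sign. After median centring alone, 16 of the 48 were above 0 and 32 below 0, against 1582 and 3513 of all 5095 genes. As deposited, 47.3% of all genes past the filter were higher in Mili-/- and 52.5% lower. The only available error is the disagreement between probe sets of one gene, with an SD of 0.31 over 720 genes. Within that SD of 0 lay 34 of the 48 (70.8%), against 68.9% of all genes. This SD holds no difference between animals or hybridisations, and no p-value can be given with 1 array per genotype.

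Glutathione transferases join glutathione to electrophiles such as lipid aldehydes and drugs. The 5 mu-class genes, neighbours on chromosome 3, were measured at bright probe sets and stood close together. Gstm1 read 2311 in Mili-/- and 1922 in Mili+/- (0.16). Gstm2 had 1935 in Mili-/- and 1847 in Mili+/- (-0.04, but 0.07 as deposited and 0.01 after loess). The 2 arrays thus gave nearly the same mu-class signal, and the family's median was 0.00 after centring and 0.11 as deposited.

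Gstm6 had 1128 in Mili-/- and 1049 in Mili+/- (0.00 after centring, 0.11 as deposited). Gstm5 had 1099 in Mili-/- and 1100 in Mili+/- (-0.11). Gstm3 had 599 in Mili-/- and 524 in Mili+/- (0.08). Mu-class sequences are much alike, and the probe sets used for Gstm1, Gstm3 and Gstm5 carry a suffix for sequence shared by a family, so their signals may mix these genes. Further probe sets past the filter stood at 0.61 for Gstm1 (91.9 in Mili-/-, 55.6 in Mili+/-), at -0.14 for Gstm2, at 0.06 for Gstm3, at -0.31 for Gstm5 and at -0.19 for Gstm6.

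Alpha-class transferases past the filter, and those of the classes other than mu, stood mostly below 0 after median centring, as did 3513 of all 5095 genes. Gsta4, which clears the lipid aldehyde 4-hydroxynonenal, had 402.5 in Mili-/- and 379 in Mili+/- (-0.02, but 0.09 as deposited). Gsta2 stood at -0.30 (314 in Mili-/-, 358.5 in Mili+/-). Gstp1, the pi-class enzyme, had 684.5 in Mili-/- and 550 in Mili+/- (0.21), and was the one gene above 0 among the 6 transferases of the other classes. Its probe set may also read the near-identical Gstp2.

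Gsto1, an omega-class enzyme with thiol transferase activity, had 108 in Mili-/- and 131 in Mili+/- (-0.38). Gstz1, which isomerises maleylacetoacetate in tyrosine breakdown, had 162 in Mili-/- and 192 in Mili+/- (-0.36). Gstk1, found in mitochondria and peroxisomes, stood at -0.33, and the theta-class Gstt1 and Gstt2 at -0.12 and -0.16. The 6 had a median of -0.25, or -0.14 as deposited, a small step below the median of all genes. Gstt2 was bright enough only in Mili+/-, which biases its value downwards. Of the membrane-bound microsomal enzymes, Mgst1 stood at 0.08 (376 in Mili-/-, 330 in Mili+/-) and Mgst3 at -0.06 (0.05 as deposited).

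**Figure D1:**
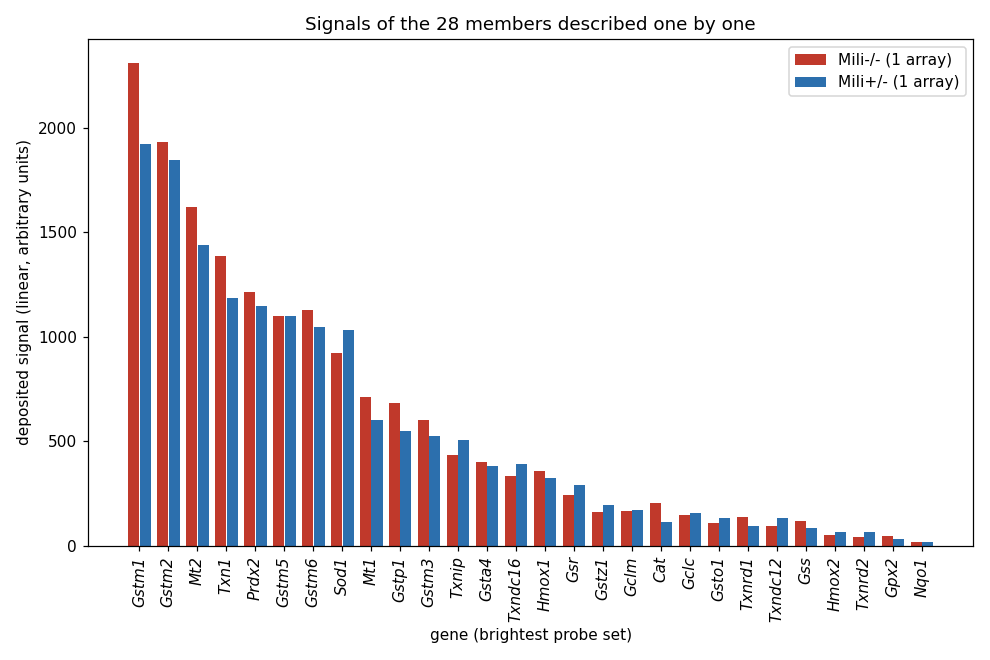
Deposited linear signals (arbitrary units, bars from 0) of 28 genes in Mili-/- (left bar) and Mili+/- (right bar), 1 array each and so with no error bar, sorted by mean signal. Paired bars are close for most genes, from Gstm1 (2311 in Mili-/-, 1922 in Mili+/-) to Nqo1 (18.6 in Mili-/-, 16.5 in Mili+/-), and farther apart for Cat (203 in Mili-/-, 113 in Mili+/-), while heights of different probe sets are not levels that can be ranked between genes.

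Genes of glutathione synthesis and reduction went both ways. Glutamate-cysteine ligase makes the first bond of glutathione. Its catalytic subunit gene Gclc had 144 in Mili-/- and 154 in Mili+/- (-0.21), and its modifier subunit gene Gclm had 163.5 in Mili-/- and 169 in Mili+/- (-0.16). Both subunits lay within 0.1 of the median of all genes past the filter, on the low side.

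Gss, the synthetase of the second step, had 120 in Mili-/- and 85.1 in Mili+/- (0.39), while a second, dim probe set stood at 0.02 (29.5 in Mili-/-, 26.9 in Mili+/-). Gsr, the reductase that regenerates glutathione, had 241 in Mili-/- and 289 in Mili+/- (-0.37). Gss and Gsr thus stood on opposite sides of 0 and kept these sides under all 4 scalings. After median centring each lay a little more than 1 SD between probe sets away from 0. Gsr, however, was inside that SD in 3 of the 4 scalings.

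Glutathione peroxidases reduce hydrogen peroxide and lipid peroxides. Gpx2, best known from the epithelium of the gut, had 46.3 in Mili-/- and 29.2 in Mili+/- (0.56), and was bright enough only in Mili-/-, which biases its value upwards. Gpx1, the widespread cytosolic form, had 109 in Mili-/- and 92.6 in Mili+/- (0.13). The secreted Gpx3 had 94.6 in Mili-/- and 95.6 in Mili+/- (-0.13, but 0.00 after quantile normalization and after loess). Gpx4, the lipid peroxidase, had 166 in Mili-/- and 176 in Mili+/- (-0.20). Apart from Gpx2, the peroxidases past the filter lay within 1 SD between probe sets of 0.

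Superoxide dismutases of all 3 compartments stood slightly below 0. Sod1, the cytosolic copper and zinc enzyme, had 924 in Mili-/- and 1031 in Mili+/- (-0.27). Sod2, the manganese enzyme of mitochondria, had 110 in Mili-/- and 120 in Mili+/- (-0.24). Sod3, the extracellular form, had 245 in Mili-/- and 258.5 in Mili+/- (-0.19). All 3 kept this sign as deposited, at -0.16, -0.13 and -0.08, and after quantile normalization and loess, and all lay within 0.15 of the median of all genes.

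Catalase, which splits hydrogen peroxide in peroxisomes, had the largest difference of the 48 genes, and its probe sets disagreed. The brightest had 203 in Mili-/- and 113 in Mili+/- (0.73, 1.66-fold higher). A second one past the filter had 56.4 in Mili-/- and 73.0 in Mili+/- (-0.48). The first carries the suffix for shared sequence and the second does not, and the gap of 1.21 between them was the widest among the 8 genes for which several probe sets passed the filter. The mean of both was 0.13, so the direction for Cat depends on the probe set.

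Red cells are rich in catalase and fat also expresses it, so markers of both are given beside it. Of 12 erythroid markers 8 were measured and 4 passed the filter, 2 of them (Alas2 and Rhd) only in Mili-/-. These 4 were higher in Mili-/- as deposited, as were 47.3% of all genes past the filter. The 8 summed to 2096 in Mili-/- and 1554 in Mili+/-, mostly from Hba-a1 (1828 in Mili-/-, 1397 in Mili+/-, 0.28), and none was at 0, though 2 lay under both floors. Of 10 adipose markers 8 were measured and 6 passed, 3 of them (Adipoq, Fabp4 and Car3) only in Mili-/-, and these 6 were also higher as deposited. Their 8 signals summed to 653 in Mili-/- and 363 in Mili+/-, with none at 0. Passing only in Mili-/- favours a higher value. The part of red cells and fat in the Cat signal was not tested. Prdx2, a peroxiredoxin abundant in red cells, stood at -0.03, and the part of red cells in its signal was not tested either.

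**Figure D2:**
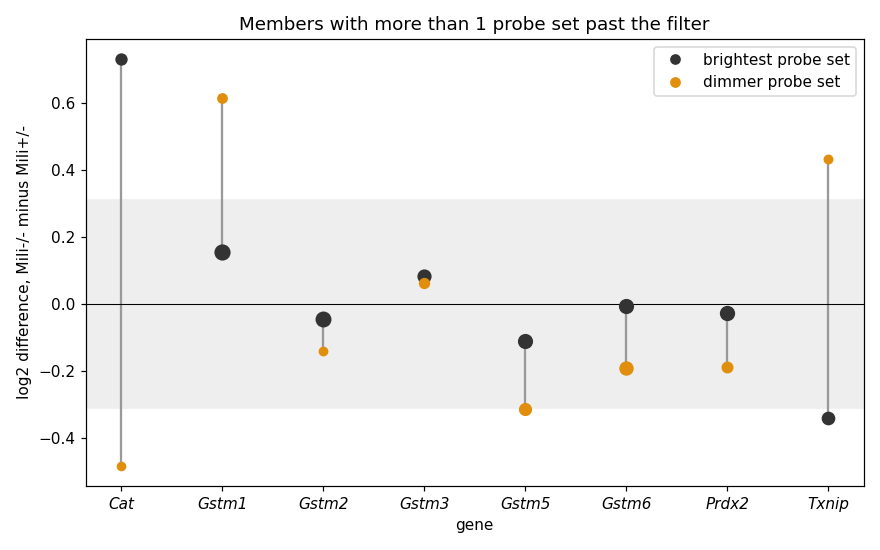
Log2 difference (Mili-/- minus Mili+/-) of each probe set past the filter, for the 8 genes with more than 1, where larger dots are brighter and the grey band is 1 SD (0.31) between probe sets of one gene. Cat (0.73 and -0.48) and Txnip (-0.34 and 0.43) straddle 0, and 5 of the 8 genes have gaps of 0.02 to 0.20.

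Peroxiredoxins remove peroxides with thioredoxin as electron donor. Prdx2, the cytosolic form, had 1214 in Mili-/- and 1146 in Mili+/- (-0.03, but 0.08 as deposited), and a second probe set stood at -0.19. The brightest carries a suffix for shared or relaxed sequence, and another lay under both floors (0.9 in Mili-/-, 0.5 in Mili+/-). Prdx4, the form of the endoplasmic reticulum, had 449 in Mili-/- and 424 in Mili+/- (-0.03, but 0.08 as deposited). Prdx3, the mitochondrial form, had 470 in Mili-/- and 508.5 in Mili+/- (-0.22). The probe sets shared by Prdx1 and Gm21399 had 2014 and 1505 in Mili-/-, against 1958 and 1424 in Mili+/- (-0.07 and -0.03). No peroxiredoxin lay outside 1 SD between probe sets.

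The 3 thioredoxin reductases stood on both sides of 0. Txnrd1, the cytosolic reductase, had 136 in Mili-/- and 94.1 in Mili+/- (0.42, 1.34-fold higher). Txnrd2, the mitochondrial reductase, had 42.7 in Mili-/- and 63.7 in Mili+/- (-0.69, 1.61-fold lower). Txnrd3, which also reduces glutathione disulfides and is abundant in testis, had 119 in Mili-/- and 138 in Mili+/- (-0.32). Over the 4 scalings Txnrd1 lay between 0.42 and 0.55, Txnrd2 between -0.69 and -0.58 and Txnrd3 between -0.32 and -0.18, so Txnrd3 was inside the SD of 0.31 in 3 of them. Each rests on 1 probe set past the filter. The one for Txnrd3 carries a suffix for relaxed probe selection, and the one for Txnrd2 lay close to the array median in Mili-/-.

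Their substrates differed less. Txn1, cytosolic thioredoxin, had 1388 in Mili-/- and 1184 in Mili+/- (0.12). Txn2, the mitochondrial thioredoxin, had 248 in Mili-/- and 215 in Mili+/- (0.09). Both stood above 0 under all 4 scalings, but within 1 SD between probe sets of 0 in each. The mitochondrial pair of Txn2 and Txnrd2 thus differed in sign, with Txn2 inside that SD. Txnip, which binds and inhibits thioredoxin, had 433 in Mili-/- and 507 in Mili+/- (-0.34) at a probe set with the suffix for shared sequence. Its second probe set had 63.9 in Mili-/- and 43.8 in Mili+/- (0.43), so no direction is given for Txnip.

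The 7 thioredoxin-like proteins had a median of -0.27, or -0.16 as deposited and -0.13 after loess. Txndc12, an oxidoreductase of the endoplasmic reticulum, had 95.5 in Mili-/- and 132 in Mili+/- (-0.57). It lay just short of 1.5-fold, which is 0.58 on this scale. Txndc16, also of the endoplasmic reticulum, had 332 in Mili-/- and 391 in Mili+/- (-0.34). Txnl1, which binds the proteasome, stood at -0.31, the spliceosomal Txnl4a at -0.27, Txndc17 at -0.16 (0.00 after quantile normalization), Txndc9 at -0.08 (0.03 as deposited) and the disulfide isomerase Txndc5 at 0.05. Without these 7, the median of the other 41 genes was -0.06.

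**Figure D3:**
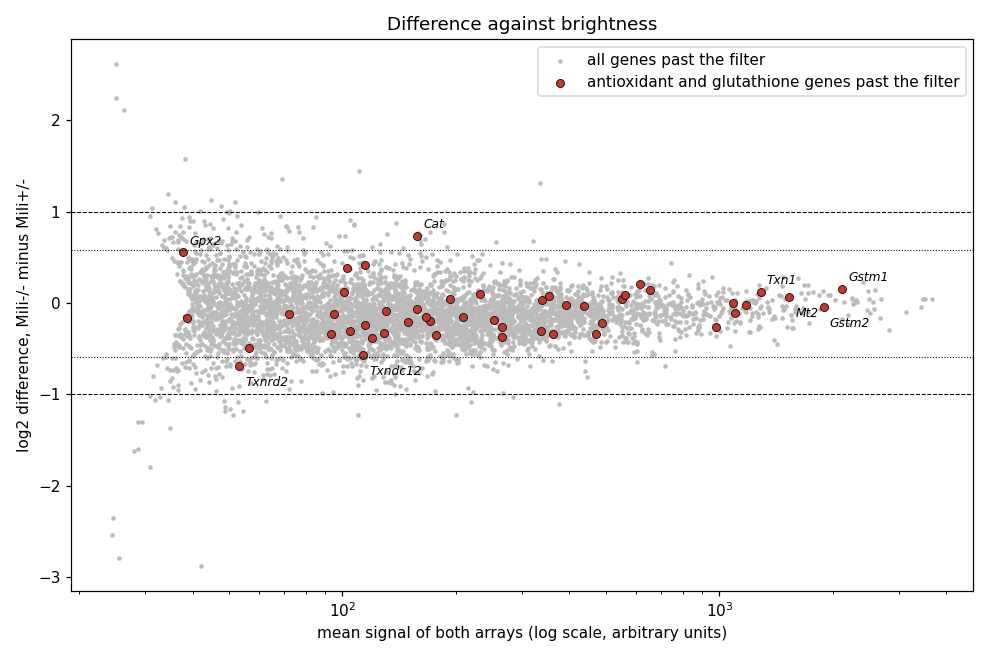
Log2 difference (Mili-/- minus Mili+/-) against the mean signal of both arrays (log axis) for the 48 antioxidant genes (red) and all 5095 genes past the filter (grey), with dotted lines at 1.5-fold and dashed lines at 2-fold. The red points lie inside the grey cloud, Cat and Txnrd2 pass a dotted line and none passes a dashed one.

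For Nrf2, the readout genes listed for it were Hmox1, Nqo1, Gclc, Gclm, Gsr, Txnrd1 and Gsta4, which are some of its known targets and not all of them. Hmox1, the inducible haem oxygenase, had 356 in Mili-/- and 322 in Mili+/- (0.04, 0.15 as deposited). Nqo1, a quinone reductase often used as an Nrf2 readout, was dim, with 18.6 in Mili-/- and 16.5 in Mili+/-, both under the array median. With Gclc, Gclm and Gsr below 0, Txnrd1 above 0 and Gsta4 at -0.02, these listed genes lay on both sides of the median of all genes. Hmox2, the constitutive haem oxygenase, had 48.9 in Mili-/- and 63.9 in Mili+/- (-0.50), and lay below 0 under all 4 scalings.

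Metallothioneins bind zinc and copper and scavenge radicals. Mt2 had 1622 in Mili-/- and 1441 in Mili+/- (0.06). Mt1 had 711 in Mili-/- and 599 in Mili+/- (0.14). Mt3, best known from the brain, had 581 in Mili-/- and 522 in Mili+/- (0.04). The 3 genes, which lie near each other on chromosome 8, stood above 0 under all 4 scalings, by at most 0.25, less than the SD between probe sets.

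The 6 genes under the filter on both arrays were Gsta1, Gsta3, Mgst2, Gpx5, Gpx7 and Nqo1. Gsta1 lay under the floor on both arrays (floors of 7 in Mili-/- and 6.3 in Mili+/-) and has no difference. Gpx5, an epididymal enzyme, had 12.8 in Mili-/- and 11.0 in Mili+/-, so its probe set was dim in both samples. Gsta3, a steroid isomerase as well as a transferase, had 36.7 in Mili-/- and 38.4 in Mili+/-, just under the medians. Gpx7, of the endoplasmic reticulum, had 32.8 in Mili-/- and 32.9 in Mili+/-, and Mgst2 had 19.0 in Mili-/- and 20.2 in Mili+/-.

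Lists of neighbouring pathways covered 170 genes, of which 120 were measured and 88 passed the filter. Of the 88, 1 was 2-fold higher and 1 was 2-fold lower, and 1 was 1.5-fold higher and 5 were 1.5-fold lower, with a median of -0.07. Over all genes past the filter these shares were 0.314% and 0.53% at 2-fold and 2.47% and 5.04% at 1.5-fold, so the related genes were near the background, and single genes below are named by their size alone. None of the 10 control genes of the Nrf2 pathway past the filter reached 1.5-fold. Nfe2l2, which encodes Nrf2, had 291 in Mili-/- and 301 in Mili+/- (-0.16). Mafk, a partner of Nrf2, stood at -0.38, its competitor Bach1 at -0.37 and Btrc, a ubiquitin ligase subunit, at -0.36.

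Glutathione supply gave 1 of 10 genes past 2-fold, Bhmt, a homocysteine methyltransferase, with 14.6 in Mili-/- and 41.5 in Mili+/- (-1.62). It reached the median only in Mili+/-, and there by little. The glutathione conjugate exporter Abcc1 stood at -0.50 and Ggct, which breaks down gamma-glutamyl peptides, at -0.23. Among 9 genes of disulfide exchange, Pdia3 was 1.5-fold lower (280 in Mili-/-, 399 in Mili+/-, -0.62), with Glrx at 0.21 and Ero1b at -0.17.

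None of 8 NADPH supply genes reached 1.5-fold. Nnt, the mitochondrial transhydrogenase, stood at -0.58 (78.2 in Mili-/-, 109 in Mili+/-), Idh1 at -0.44 and Taldo1 at -0.30. None of 8 selenoprotein genes did so either, with Pstk, a kinase of selenocysteine synthesis, at 0.28, Sephs2 at 0.20 and Selenos at 0.18. Sources of superoxide and peroxide held 5 genes past the filter and none past 1.5-fold, with Dao at 0.55 (bright enough only in Mili-/-), Rac1 at -0.30 and Rac2 at -0.09.

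In repair of oxidised protein and DNA, 1 of 9 genes was 1.5-fold lower, Lonp1, the mitochondrial protease, with 103 in Mili-/- and 149 in Mili+/- (-0.64). The uracil glycosylase Ung stood at -0.37 and the adenine glycosylase Mutyh at -0.30. In haem and metal handling, 1 of 16 was 1.5-fold lower, the haem synthesis gene Cpox, with 48.6 in Mili-/- and 77.4 in Mili+/- (-0.78). This probe set carries a suffix for shared or relaxed sequence. Cpox, Ung and Btrc each had 2 probe sets past the filter, and only the brighter is given. Mtf1, the metal sensor of metallothionein genes, stood at 0.33 and Ireb2 at -0.29.

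Other drug and aldehyde metabolism held 14 genes past the filter. Cyp2e1, an oxidase that also releases peroxide, was 2-fold higher, with 43.6 in Mili-/- and 6.6 in Mili+/- (2.61). Its Mili+/- signal lay near the floor of 6.3, and only its Mili-/- signal reached the median. Cyp1b1 was 1.5-fold lower (-0.71) and bright enough only in Mili+/-, and the aldose reductase family gene Akr1b8 stood at 0.29 (1087 in Mili-/-, 824 in Mili+/-).

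**Figure D4:**
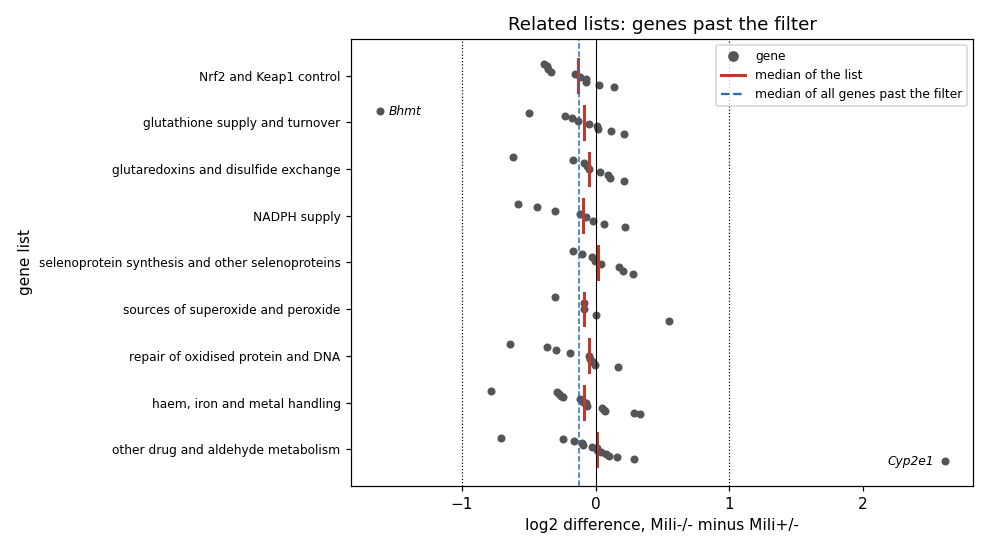
Log2 difference (Mili-/- minus Mili+/-) of the genes past the filter in 9 lists of related pathways, 1 row a list, with a red bar at each list's median and dotted lines at 2-fold. The medians lie between -0.14 and 0.01, and only Cyp2e1 (2.61) and Bhmt (-1.62) lie beyond the dotted lines.

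Cell type markers are given beside these small differences. All 7 spermatogonial and early germ cell markers passed the filter (Sall4 only in Mili+/-). They were lower in Mili-/- as deposited, as were 52.5% of all genes past the filter. Their sums were 2809 in Mili-/- and 3302 in Mili+/-, and their median difference was -0.53. Sall4 (-0.84), Stra8 (-0.72), Kit (-0.62) and Zbtb16 (-0.53) lay lowest. Dazl (-0.28), Uchl1 (-0.27) and Ddx4 (-0.12) lay within the SD of 0.31 between probe sets. Of 7 Sertoli markers past the filter 5 were higher as deposited, with sums of 2195.5 in Mili-/- and 1756.5 in Mili+/- and a median of 0.30. The median was -0.29 over 4 Leydig markers past the filter, -0.06 over 4 peritubular, 0.10 over 7 macrophage and 0.45 over 3 endothelial markers. Star (Leydig) passed only in Mili+/-, and Cx3cr1 (macrophage) and Pecam1 (endothelial) only in Mili-/-. Passing on 1 array alone favours a higher value on that array. The endothelial markers were Pecam1 (0.45), Cdh5 (0.45) and Eng (-0.25). Of 4 liver markers measured only Cyp2e1 passed, and neither of 2 caput epididymis markers did. No marker was at 0, and the part of cell makeup in the antioxidant genes' differences was not tested.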

How the data were processed

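The authors' deposited table gives a linear signal intensity for each of 12488 probe sets on 2 arrays, scaled to a common level as judged from the values. Which tool made them is not given in the sources used here. The 66 control probe sets and 1 missing value among them were left out. A platform annotation gave 10833 probe sets 1 symbol, 396 several and 1193 no row. Symbols were updated by Entrez ID in a RefSeq table of GRCm38.p6 (10817 matched), which altered no member's symbol. Signals were floored at each array's 20th percentile, converted to log2 and centred on the array's median. With 1 array a genotype no test was possible, and this number of arrays limits the precision.

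Members and lists were chosen with earlier results of these data known. Values are given for the 12 members with the largest absolute difference, the 10 with the highest signal, those with several probe sets past the filter and the Nrf2 genes among them, and for up to 3 genes a related list. Remaining members are given by their difference. Alternatives were other scalings (loess span 0.4), floors, filters, the mean over probe sets, leaving out suffixed probe sets and platform symbols. Code was tested on simulated data. Python 3.11.15, NumPy 2.4.6, pandas 2.3.3, statsmodels 0.14.6 and matplotlib 3.10.9 were used.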

Additional observations from a re-analysis of the deposited data

Results flagged for a closer look

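Besides the brightest one, the members had 17 further probe sets, which the comparisons between genes did not use. Of these, 1 was 2-fold higher in Mili-/-, a dim probe set of Gstm5 with 39.1 in Mili-/- and 9.1 in Mili+/- (log2 difference 1.99), and none was 2-fold lower. It did not reach the median on either array and carries a suffix for relaxed probe selection. The other probe sets of Gstm5 stood at -0.11, -0.31 and -0.29.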

How the results depend on the processing

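No member reached 2-fold in either direction under any of the 11 planned settings. Of all genes, at most 1.90% were 2-fold higher and 1.79% 2-fold lower, both with no filter. The count of 1 member 1.5-fold higher was 2 with values as deposited (Cat and Gpx2), 0 with the mean over probe sets and 0 without suffixed probe sets. In that order, 3.87%, 2.18% and 2.05% of all genes past the filter were 1.5-fold higher. The count of 1 member 1.5-fold lower was 0 as deposited and 0 under the stricter filter (75th percentile), since Txnrd2 was then at -0.58 or too dim. Of all genes, 2.43% as deposited and 3.59% under the stricter filter were 1.5-fold lower. These small counts are not read as a result about the members. Cat stood at -0.48 without suffixed probe sets, the opposite direction to its main value, because only the second probe set was left. Txnip stood at 0.43 in that setting. With the mean over probe sets Cat was at 0.13, Txnip at 0.05 and Gstm5 at 0.32, the last through its dim probe set. The other 216 of 221 recomputed differences of the 28 genes stayed within 0.31, the SD between probe sets, of their main value. Some of these settings could not move a gene that far. Platform symbols altered no member, and the deposited scale adds the same 0.11 to every difference. Over the members past the filter, the median ranged from -0.16 (no suffixed probe sets) to -0.01 (as deposited, quantile and loess), and that of all genes from -0.13 to -0.01. Without the 7 thioredoxin-like proteins, a setting added after seeing the data, it was -0.06. No paired analysis was possible because each genotype had 1 array. Signals near the floor limit Gsta1, Gpx5 and Nqo1.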
